A study of Homo sapiens with 18 samples.

Results

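The mRNAs described here encode the subunits of eIF2 and eIF2B, the factor pair that delivers the initiator tRNA to the ribosome and keeps that delivery running. They are 8 genes taken by name: EIF2S1, EIF2S2 and EIF2S3 for eIF2, and EIF2B1 to EIF2B5 for eIF2B. All 8 were found among the 13661 genes of the table, and all 8 passed the filter on low reads that left 12720 genes. The study set minocycline against vehicle in HEK293, a human embryonic kidney line transformed with adenovirus DNA, by polysome profiling. That assay separates mRNAs on a sucrose gradient by the number of ribosomes they carry. The groups used here are the monosome, the light polysome and the heavy polysome fraction of cells given DMSO vehicle for 12 h, with 3 biological replicates each. The series has 18 libraries, and those of cells given 100 µM minocycline were not analysed here. Each replicate number is 1 batch in the labels. It is taken here as 1 gradient, as in the deposited percentages, though the labels do not state this.

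eIF2 is a GTPase of 3 subunits that carries methionyl initiator tRNA to the small ribosomal subunit and leaves as eIF2-GDP once the start codon is found. eIF2B exchanges that GDP for GTP. Under stress, kinases phosphorylate the alpha subunit of eIF2, which turns eIF2 into an inhibitor of eIF2B, lowers initiation on most mRNAs and favours a few such as ATF4. In eIF2B the epsilon subunit (EIF2B5) holds the exchange activity and pairs with gamma (EIF2B3). The alpha, beta and delta subunits (EIF2B1, EIF2B2 and EIF2B4) form a regulatory core that senses the phosphorylated form. Inherited changes in eIF2B subunits cause leukoencephalopathy with vanishing white matter.

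Many mRNAs of the translation machinery begin with a run of pyrimidines right at the cap, the terminal oligopyrimidine (TOP) tract, so the starts of the members were set side by side. RefSeq (GRCh38.p14) start sites were at hand for 7 of the 8 genes; EIF2S2 had no entry. The 4 windows below are 30 bases long, 5′ to 3′ on the strand of the gene, and the first transcribed base is base 16. Capitals mark the longest run of C and T in the window. They are shown because EIF2S3, the member with the lowest ribosome load, differs in this feature from the others.
EIF2S3 (chrX:24054941-24054970, + strand): ggggtgaTTTCCTTCCTCTTTTggcaacat
EIF2S1 (chr14:67360313-67360342, + strand): gcgaggaggTTCCgcatgcgcggtggagtg
EIF2B3 (chr1:44986581-44986610, - strand): aTTgggctgtcagtcagaggcggcgtggag
EIF2B5 (chr3:184135343-184135372, + strand): ggtggcagCTTCCTTgcggaagtggtgacc
The EIF2S3 run of 15 pyrimidines covers the annotated start. Part of it lies before the first transcribed base, so its length is not that of a TOP tract. In the windows of the other members the longest run was 2 to 7 bases, and in none of them did a run cover the start. Of 27305 genes with a RefSeq start, 1.2% hold a run of 15 or more in the same window and 0.923% hold one over the start itself. The match is a description of letters on the gene strand and shows no binding site. Leaders differ between annotations. From the RefSeq start, EIF2S3 has a leader of 13 nt without an AUG, whereas the GENCODE 29 transcript starts further upstream and gives 253 nt with 2 AUGs. For EIF2S1 the leader has 130 nt with 1 AUG from the RefSeq start and 461 nt with 8 AUGs in GENCODE 29. The 5 eIF2B genes have no AUG in their GENCODE 29 leaders, which are 80 to 209 nt long.

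The genes lie on 7 chromosomes of GRCh38 (GENCODE 29 coordinates). EIF2S1 (ENSG00000134001) spans 67359997 to 67386516 on chromosome 14 and EIF2S2 (ENSG00000125977) 34088298 to 34112332 on chromosome 20. EIF2S3 (ENSG00000130741) spans 24054716 to 24077971 on the X chromosome. EIF2B1 (ENSG00000111361) lies on chromosome 12 at 123620406 to 123633766, and EIF2B2 (ENSG00000119718) on chromosome 14 at 75002911 to 75012366. EIF2B3 (ENSG00000070785) lies on chromosome 1 at 44850522 to 44986722, and EIF2B4 (ENSG00000115211) on chromosome 2 at 27364352 to 27370486. EIF2B5 (ENSG00000145191) lies on chromosome 3 at 184135038 to 184146112. Part of some transcripts is shared with exons of genes on the other strand. That part was 29.3% of EIF2B2 (AL049780.1 and AL049780.3), 22.8% of EIF2B1 (DDX55 and GTF2H3), 6% of EIF2S1 (ATP6V1D) and 5.75% of EIF2B4. Whether counting used strand is not given in the sources used here, so reads in those stretches cannot be told apart. The other 4 members share no exonic base.

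Depth was 13447139 to 24441159 reads per library. The smallest count of a member in any library was 109 reads, for EIF2B2 in a monosome library, with an exact Poisson 95% interval of 89.5 to 131.5 that covers counting error only. The deposited values are whole reads divided by 1 factor for each library. A level or percentage is thus taken here as relative to other genes and says nothing of the RNA in a fraction. The libraries are bulk samples, in which fewer cells with an mRNA and less of it per cell cannot be told apart. Light polysome library 2 stood apart from the rest: it correlated at 0.894 on average with light polysome libraries 1 and 3, which correlated with each other at 0.985, and at 0.940 with the heavy polysome libraries (Pearson r over genes on the log2 scale). As a check of the label, all 7 chosen HEK293 markers had reads in every library, from 18 reads for PAX2 upward. The blood, liver and skin markers PTPRC, CD3E, HBB, ALB and KRT5 had no row among the 13661 genes. The summed normalized count of the 7 markers was 8165.5 to 17221.3 in monosomes, 7791.3 to 15465.7 in light and 18963.0 to 21534.6 in heavy polysomes.

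The mRNAs of the eIF2 subunits differed in their shares, a difference between genes that was not tested. That of the alpha subunit sat mostly in heavy polysomes and that of beta in light and heavy polysomes. For gamma, monosomes were the largest single fraction, with a mean share of 49.5%. Percentages below are the share of a gene's normalized count in each fraction of 1 gradient. For the median gene of all those kept, monosomes held 31.3%, light polysomes 30.8% and heavy polysomes 33.8%.

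EIF2S1 encodes eIF2 alpha, the subunit that the stress kinases phosphorylate. It had 17.8%, 16.1% and 13.7% in monosomes, 14.6%, 36.1% and 15.4% in the light and 67.6%, 47.9% and 70.8% in the heavy polysome fraction of gradients 1, 2 and 3. Heavy polysomes led in all 3 gradients, and the light share of gradient 2 was above that of the other gradients. EIF2S2 encodes eIF2 beta, which contacts the GTPase-activating protein eIF5 and eIF2B. Its shares were 18.5%, 16.3% and 17.6% in monosomes, 31.9%, 51.3% and 36.5% in the light and 49.6%, 32.4% and 45.9% in the heavy polysome fraction. The monosome share hardly varied (17.5% ± 1.1, SD, n = 3), while light polysomes led in gradient 2 and heavy polysomes in gradients 1 and 3. EIF2S3 encodes eIF2 gamma, the subunit that binds GTP and the initiator tRNA. It had 41.1%, 51.6% and 55.8% in monosomes, 28.1%, 26.9% and 20.5% in the light and 30.8%, 21.5% and 23.7% in the heavy polysome fraction. Monosomes led in all 3 gradients, and each monosome share lay above every monosome share of EIF2S1 and EIF2S2.

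**Figure D1:**
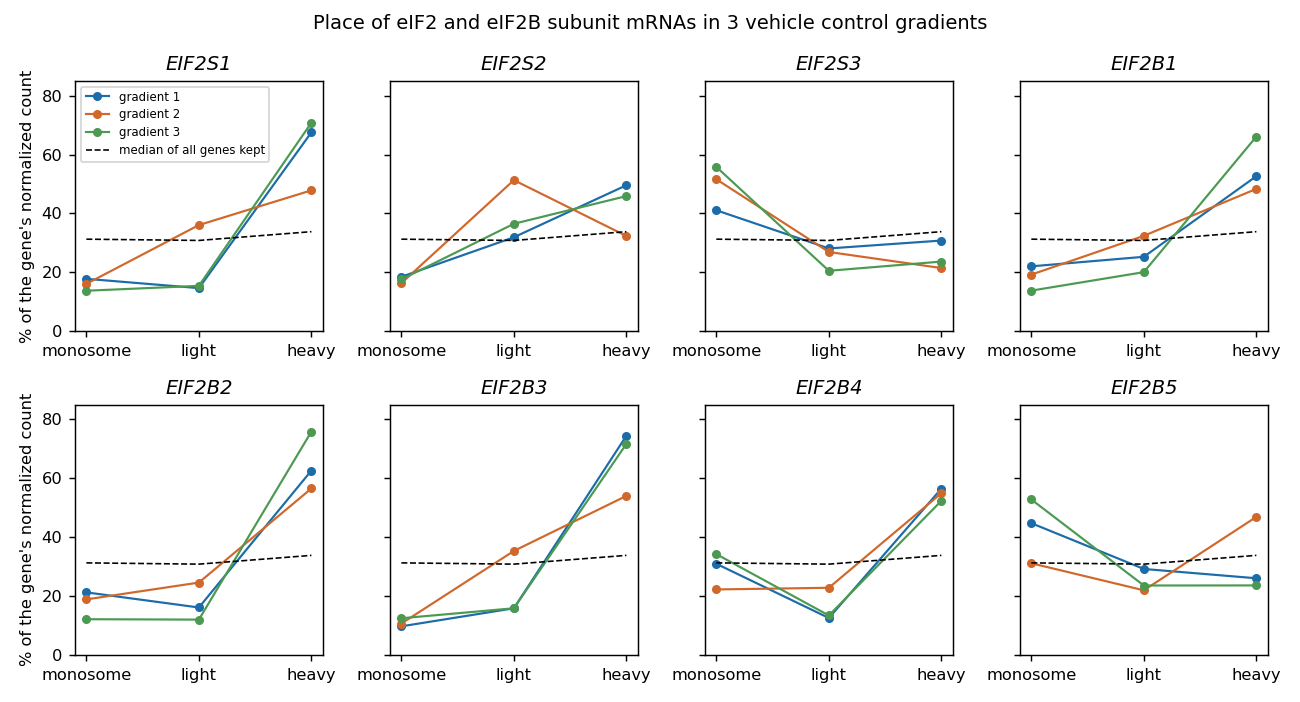
Share of each gene's normalized count (y axis, %) in the monosome, light and heavy polysome fraction (x axis) of gradients 1, 2 and 3 (coloured lines), with the median share of all genes kept as a dashed line. EIF2S1 and 4 eIF2B genes peak in heavy polysomes in every gradient, EIF2S3 peaks in monosomes in every gradient, and gradient 2 departs from the others for EIF2S2 and EIF2B5.

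Among the eIF2B subunits, 4 mRNAs sat mostly in heavy polysomes and the mRNA of the catalytic subunit did not. EIF2B1 (alpha) had 22.04%, 19.2% and 13.8% in monosomes, 25.3%, 32.4% and 20.1% in the light and 52.7%, 48.4% and 66.1% in the heavy polysome fraction. EIF2B2 (beta) had 21.3%, 18.9% and 12.1% in monosomes, 16.1%, 24.6% and 12.0% in the light and 62.6%, 56.6% and 75.9% in the heavy polysome fraction. The lowest heavy share of EIF2B2 was above its highest light share by more than the whole spread of the light shares. EIF2B4 (delta) had 31.0%, 22.2% and 34.2% in monosomes, 12.5%, 22.8% and 13.4% in the light and 56.5%, 54.9% and 52.4% in the heavy polysome fraction. Its profile had 2 peaks in gradients 1 and 3, where light polysomes held less than either neighbour. EIF2B3 (gamma), the partner of the catalytic subunit, had 9.71%, 10.7% and 12.5% in monosomes, 15.8%, 35.3% and 15.9% in the light and 74.5%, 54.0% and 71.7% in the heavy polysome fraction. It had the lowest monosome mean of the 8 genes, 10.9% ± 1.4. EIF2B5 (epsilon, the catalytic subunit) had 44.8%, 31.1% and 52.8% in monosomes, 29.2%, 21.95% and 23.6% in the light and 26.0%, 46.9% and 23.6% in the heavy polysome fraction. Monosomes led for EIF2B5 in gradients 1 and 3 and heavy polysomes in gradient 2, so its monosome and heavy ranges overlap.

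The position in the gradient was then condensed into the mean ribosome load (MRL), a deposited score that is the weighted mean of a gene's shares with a weight of 1 for the monosome, 2.5 for the light and 6 for the heavy fraction. In order, the MRL was 4.67 ± 0.39 for EIF2B3, 4.51 ± 0.41 for EIF2B2, 4.44 ± 0.44 for EIF2S1 and 4.18 ± 0.38 for EIF2B1 (SD, n = 3 gradients). EIF2B4 had 3.97 ± 0.14, EIF2S2 3.73 ± 0.30, EIF2B5 2.98 ± 0.61 and EIF2S3 2.64 ± 0.28. The range of every gene overlapped that of its neighbour in this order, and only EIF2S1 over EIF2B1 held in 3 of 3 gradients among the 7 neighbouring pairs. Within eIF2, EIF2S1 was above EIF2S2 by 0.71 ± 0.20 and EIF2S2 above EIF2S3 by 1.09 ± 0.23, each in 3 of 3 gradients, and the ranges of EIF2S2 (3.39 to 3.96) and EIF2S3 (2.48 to 2.96) did not overlap. Within eIF2B, EIF2B3 was above EIF2B5 by 2.22, 0.56 and 2.29 in gradients 1, 2 and 3. EIF2B1, EIF2B2 and EIF2B4 were also above EIF2B5 in 3 of 3 gradients, by 1.19, 1.53 and 0.99 on average, and gradient 2 gave the smallest gap each time. These differences between genes were not tested, and the order also turned between some genes that are not neighbours: EIF2S1 had 3.93 and EIF2B4 4.09 in gradient 2.

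**Figure D2:**
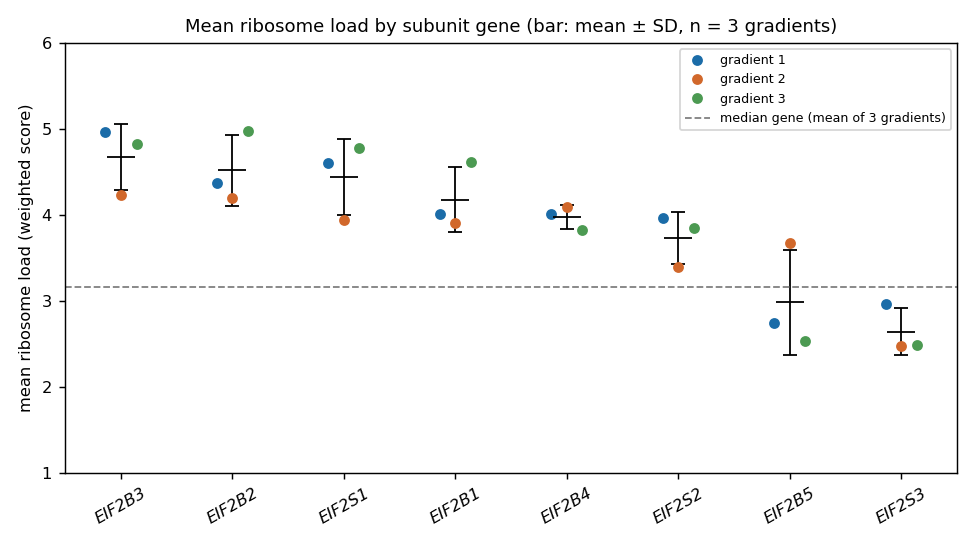
Mean ribosome load (y axis, weighted score) of the 8 genes in order, with 1 point per gradient, the mean as a short line and the SD over 3 gradients as error bars; the dashed line is the median gene at 3.17. Neighbours overlap, 6 genes lie above the line in every gradient, and EIF2S3 lies below it in every gradient.

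Against the median gene of the same gradient, limma's moderated test called the MRL of 5 of the 8 genes higher and of 0 lower, with Benjamini-Hochberg adjustment over all genes. Of all genes, 46.7% were called, 22% higher and 24.7% lower. The log2 MRL of EIF2B3 exceeded that of the median gene by 0.56 (SE 0.08, adjusted p = 0.00117), EIF2B2 0.51 above (SE 0.08, adjusted p = 0.00186) and EIF2S1 0.48 above (SE 0.08, adjusted p = 0.00271). EIF2B1 lay 0.40 above (SE 0.08, adjusted p = 0.0062) and EIF2B4 0.33 above (SE 0.08, adjusted p = 0.0102). All 5 were above the median gene in 3 of 3 gradients. EIF2S2 at 0.23 (adjusted p = 0.0565) and EIF2S3 at -0.27 (adjusted p = 0.0553) came close to the threshold from opposite sides, also in 3 of 3 gradients each. EIF2B5 at -0.11 did not pass (adjusted p = 0.492). By rank among the 12720 genes kept, EIF2B3 stood at percentile 98.8, EIF2B2 at percentile 97.4 and EIF2S1 at percentile 96.2, against percentile 39.7 for EIF2B5 and percentile 26.1 for EIF2S3. Without replicate 3, EIF2B1 missed the threshold (adjusted p = 0.0583), and without replicate 1 EIF2B4 did (0.105). Without replicate 2, EIF2S2 was called higher (0.30, adjusted p = 0.00429) and EIF2B5 lower (-0.26, adjusted p = 0.0344).

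As a set, the 8 genes had a median MRL of 4.01, 3.92 and 4.23 in gradients 1, 2 and 3, against 3.17, 3.17 and 3.16 for all genes kept. The eIF2 subunits had 3.96, 3.39 and 3.84, and the eIF2B subunits 4.01, 4.09 and 4.61. In the authors' deposited table, 5 of the 8 genes carry the strict heavy polysome class (EIF2S1 and EIF2B1 to EIF2B4) and 3 are in the unassigned or mixed class. The heavy class holds 1654 of the 13661 genes.

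The next question was which polysome step separates the genes. The 9 libraries were fitted together with limma on log2(normalized count + 1), a scale that understates changes of low genes. The contrasts share libraries with each other, so their values are given side by side. Heavy polysomes set against monosomes called 5 of the 8 genes higher and 0 lower, where 49.1% of all genes were called, 24.7% higher and 24.4% lower. The median difference over the 8 genes was 1.44 on the log2 scale, beside 0.13 for all genes.

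EIF2B3 had 1868, 1935 and 1469 normalized counts in heavy polysomes of gradients 1, 2 and 3, against 244, 381 and 255 in monosomes. The groups are far apart, with a log2 difference of 2.60 (SE 0.45, adjusted p = 0.000496). EIF2S1 had 3004, 2744 and 2805 in heavy polysomes, against 791, 922 and 544 in monosomes. Its difference was 1.95 (SE 0.44, adjusted p = 0.00264), or 3.87-fold. EIF2B2 had 896, 1094 and 1101 in heavy polysomes, against 304, 365 and 176 in monosomes, a difference of 1.93 (SE 0.40, adjusted p = 0.00153). EIF2B1 had 1541, 1555 and 1889 in heavy polysomes, against 645, 618 and 394 in monosomes, a difference of 1.61 (SE 0.34, adjusted p = 0.0018). For neither gene do the fractions overlap. Without replicate 3, EIF2B1 missed the threshold (adjusted p = 0.0638). EIF2S2 had 21534, 17402 and 19701 in heavy polysomes, against 8030, 8775 and 7549 in monosomes. The fractions do not overlap and the difference was 1.27 (SE 0.45, adjusted p = 0.0315), 2.4-fold. The call missed the threshold without replicate 1 (adjusted p = 0.334) or 3 (0.237), without monosome library 1, 2 or 3 (0.0876, 0.0514 and 0.0817), without light polysome library 1 (0.0515) and without heavy polysome library 1 or 3 (0.0979 and 0.0804).

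For the other 3 genes heavy polysomes and monosomes were not separated by this test. EIF2B4 had 795, 1013 and 610 in heavy polysomes, against 436, 410 and 399 in monosomes. The ranges do not overlap and the difference was 0.93 (SE 0.38, adjusted p = 0.0554); with the replicate number as a block it passed (adjusted p = 0.039). It also passed without replicate 2 (0.0195) or without light polysome library 2 alone (0.00862). EIF2S3 had 10336, 5436 and 7462 in heavy polysomes, against 13791, 13073 and 17602 in monosomes. It was lower in heavy polysomes in 3 of 3 gradients, by -0.42, -1.27 and -1.24, with a fitted difference of -0.97 (SE 0.43, adjusted p = 0.0728). Without replicate 2 (adjusted p = 0.0326) or without light polysome library 2 (0.0378) EIF2S3 was called lower. EIF2B5 had 741, 1095 and 656 in heavy polysomes, against 1274, 727 and 1466 in monosomes. Its differences were -0.78, 0.59 and -1.16, so gradient 2 pointed the other way, and the fitted value was -0.45 (SE 0.37, adjusted p = 0.321). Without replicate 2 the value was -0.97 (adjusted p = 0.00366).

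**Figure D3:**
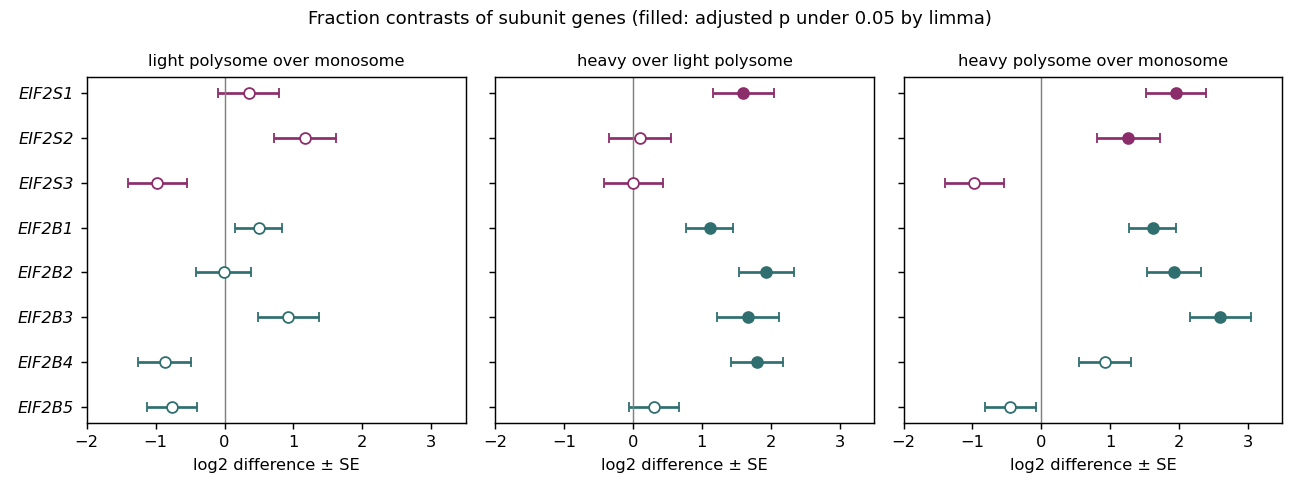
Log2 difference (x axis, ± SE) of each gene between fractions in the fit of 9 libraries, with eIF2 genes in purple and eIF2B genes in teal; filled points passed an adjusted p of 0.05. No gene passed for light polysome over monosome, and 5 passed in each of the other contrasts.

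Light polysomes set against monosomes called 0 of the 8 genes by limma, and 3 had an unadjusted p under 0.05 (EIF2S2, EIF2S3 and EIF2B4). Of all genes, 18.7% were called, 8.47% higher and 10.2% lower. On the recovered reads edgeR called 0 and DESeq2 called 2, EIF2S2 higher (1.201, adjusted p = 0.00403) and EIF2S3 lower (-0.99, adjusted p = 0.0252). Of all 12720 genes, edgeR called 2414 and DESeq2 2952, beside 2380 by limma. EIF2S2 had 13861, 27612 and 15663 normalized counts in light polysomes, against 8030, 8775 and 7549 in monosomes. Every light polysome library was above every monosome library, with a difference of 1.17 (SE 0.45, adjusted p = 0.0877). EIF2S3 had 9437, 6817 and 6474 in light polysomes, against 13791, 13073 and 17602 in monosomes, also without overlap (-0.98, SE 0.43, adjusted p = 0.129). EIF2B3 had 0.93, EIF2B1 0.50 and EIF2S1 0.35, while EIF2B2 had -0.01, EIF2B5 -0.76 and EIF2B4 -0.87. Without replicate 2 there were 4 calls, EIF2S2 higher and EIF2S3, EIF2B4 and EIF2B5 lower. In that fit the calls over all genes also rose, to 4507 of 12720. Without light polysome library 2 alone only EIF2B4 was called, lower at -1.32 (adjusted p = 0.00704), beside 2757 of all genes.

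Heavy polysomes set against light polysomes called 5 genes higher and 0 lower, where 32.2% of all genes were called, 14.7% higher and 17.5% lower. The called genes were EIF2S1 and 4 eIF2B genes. EIF2B2 had 896, 1094 and 1101 normalized counts in heavy polysomes, against 230, 476 and 174 in light polysomes, a difference of 1.94 (SE 0.40, adjusted p = 0.00702). EIF2B4 had 795, 1013 and 610 in heavy polysomes, against 176, 420 and 156 in light polysomes, a difference of 1.80 (SE 0.38, adjusted p = 0.0073). EIF2B3 followed at 1.67 (SE 0.45, adjusted p = 0.0141), EIF2S1 at 1.60 (SE 0.44, adjusted p = 0.0156) and EIF2B1 at 1.12 (SE 0.34, adjusted p = 0.0243). All 5 were higher in heavy than in light polysomes in 3 of 3 gradients. EIF2S2 (0.10, adjusted p = 0.875) and EIF2S3 (0.003, adjusted p = 0.996) did not pass, nor did EIF2B5 at 0.31 (adjusted p = 0.525). In gradient 2, where the light polysome library stood apart, the heavy over light value was 0.41 for EIF2S1 and 0.61 for EIF2B3. Gradients 1 and 3 gave 2.20 and 2.20 for EIF2S1 and 2.23 and 2.17 for EIF2B3. Without replicate 1 this contrast called 0 of the 8 genes by limma (3 at an unadjusted p under 0.05) and 0 of all 12720, and without replicate 3 it called 0 of the 8 (4 unadjusted) and 1 of all. The count was 2 without light polysome library 1 or 3 or without heavy polysome library 1, and 3 without heavy polysome library 2. In the same order, 1370, 910, 1930 and 2295 of all 12720 genes were called, in place of 4097. EIF2B2 and EIF2B4 were the pair still called without either light library or heavy library 1.

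The order of the genes was then set beside features of the genes. Coding lengths run from 915 nt (EIF2B1) to 2163 nt (EIF2B5). EIF2S1, EIF2S2, EIF2B1 and EIF2B2 fall among the 3616 genes with over 600 and up to 1200 coding nt, whose median MRL was 3.17. Within that class EIF2B2 stood at percentile 95.4, EIF2S1 at percentile 93.7, EIF2B1 at percentile 87.3 and EIF2S2 at percentile 72.5. EIF2S3, EIF2B3 and EIF2B4 fall among the 3020 genes with over 1200 and up to 1800 nt, whose median was 3.33. EIF2B3 and EIF2S3, with nearly the same coding length (1356 and 1416 nt), stood at percentile 98.3 and percentile 22.5 there, and EIF2B4 at percentile 79. EIF2B5 stood at percentile 32.4 of 1729 genes with over 1800 and up to 2400 nt (median 3.32). The longest coding sequence of the 8 thus had the second lowest MRL.

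**Figure D4:**
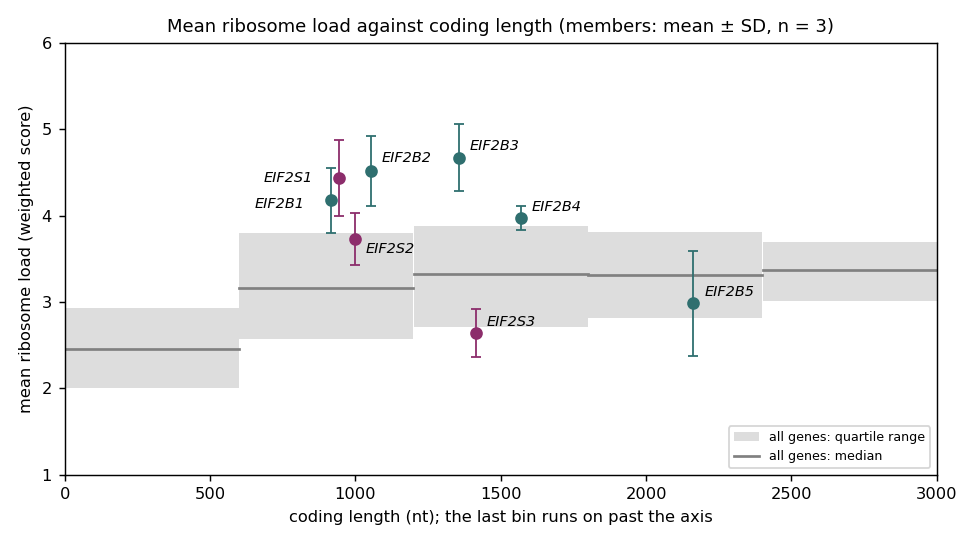
Mean ribosome load (y axis, mean ± SD over 3 gradients) against coding length in nt (x axis) for eIF2 genes (purple) and eIF2B genes (teal), over the median and quartile range of all genes kept in 5 length classes. EIF2S1, EIF2B1, EIF2B2, EIF2B3 and EIF2B4 lie above the quartile range of their class and EIF2S3 lies just below it.

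Levels were compared between genes per kb of transcript (GENCODE 29 principal transcript), as the mean normalized count over the 9 libraries. EIF2S2 had 5862 and EIF2S3 3516 normalized counts per kb, against 350.3 for EIF2S1, which is 16.7-fold and 10.0-fold above EIF2S1. These ratios depend on the mix of fractions: EIF2S3 over EIF2S1 was 30.9 in monosomes, 10.7 in light and 4.26 in heavy polysomes, and EIF2S2 over EIF2S1 was 18.2, 29 and 11.6. Per kb of coding sequence the ratios over the 9 libraries were 9.38 and 4.27. That measure divides all reads of a gene, also those in untranslated ends, by the coding length. It therefore raises genes with long untranslated ends, such as EIF2S1. The eIF2B genes lay between 124.1 (EIF2B2) and 545.1 per kb (EIF2B3), with a median of 332.9, and between 312.6 (EIF2B4) and 1092 per coding kb (EIF2B1). Their order thus depends on the length used, and EIF2B3 over EIF2B2 was 4.39 per transcript kb and 1.31 per coding kb. Per transcript kb, EIF2S2 had 7359 ± 780 in heavy polysomes, EIF2S3 2710 ± 862, EIF2B3 1059 ± 152, EIF2B1 670.8 ± 79.6 and EIF2S1 635.7 ± 30.4 (SD, n = 3). EIF2B4 had 449.6 ± 113, EIF2B5 312.8 ± 87.8 and EIF2B2 238.9 ± 27.0. In monosomes EIF2S3 led with 5186 ± 852, ahead of EIF2S2 with 3056 ± 233, and EIF2B5 was next with 435.2 ± 144. Per coding kb EIF2S1 (796.1 ± 203) and EIF2B1 (603.6 ± 151) stood above EIF2B5 (534.4 ± 177) in monosomes, with overlapping errors. EIF2S2 levels are uncertain to an unknown degree, because GENCODE 29 holds 4 pseudogenes named after it and how shared reads were counted is not given. EIF2S3 has a copy on chromosome 12, EIF2S3B, whose coding sequence is 98.24% identical. The copy had 15 to 137 reads per library, against 5518 to 12942 for EIF2S3, and the same limit holds for reads that fit both.

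**Figure D5:**
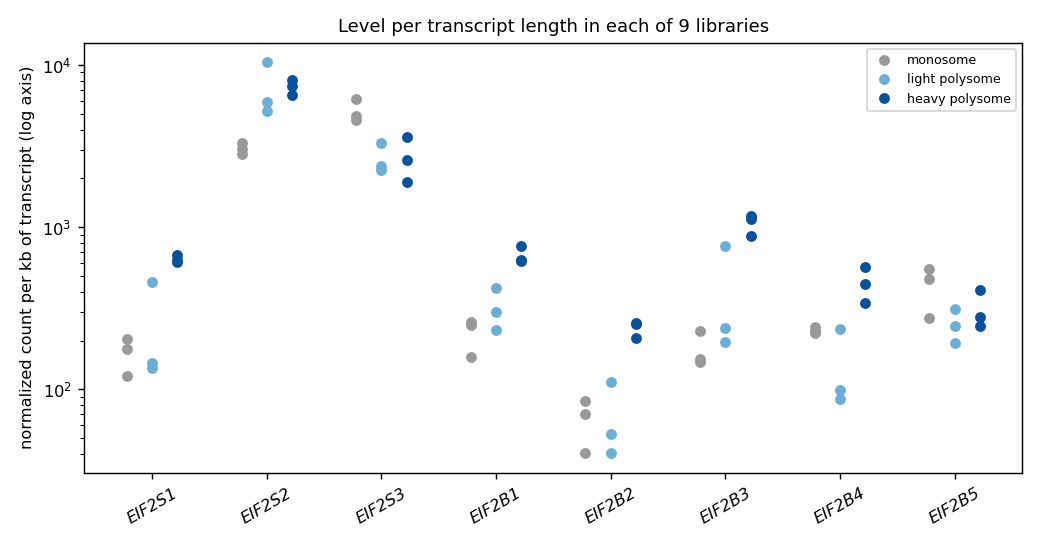
Normalized count per kb of transcript (y axis, log scale) in each of the 9 libraries, by gene and fraction (grey monosome, light blue light polysome, dark blue heavy polysome). EIF2S2 and EIF2S3 lie above the other 6 genes in every library, and the fractions change order between EIF2S3 and EIF2S1.

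Other genes of the eIF2 cycle, and some that can work without eIF2, were called in both directions. The cycle list has 12 genes, among them EIF2A and EIF2D, which can work without eIF2. Of these 12, 5 had a higher and 3 a lower MRL than the median gene, beside 22% higher and 24.7% lower of all genes. The list median was 3.504 ± 0.356 (SD, n = 3), beside 3.17 for all genes. The highest were METAP2 (4.42 ± 0.41), which binds eIF2, and EIF5 (4.17 ± 0.02), the GTPase-activating protein of eIF2. The lowest were EIF2D (2.11 ± 0.35) and EIF2A (2.26 ± 0.20), factors that can bring initiator tRNA to the ribosome without eIF2. All 4 passed (adjusted p = 0.00263, 0.0038, 0.00435 and 0.00489 by limma). Of 13 kinases, phosphatase subunits and regulators of eIF2 phosphorylation, 3 were higher and 1 lower, about the share of all genes for the higher ones, with a list median of 3.39 ± 0.03. DNAJC3, an inhibitor of eIF2 kinases, had 4.14 ± 0.12 (adjusted p = 0.00455). PPP1CA, a catalytic phosphatase subunit, had 3.97 ± 0.94 and did not pass (adjusted p = 0.0949). PPP1R15B, which targets that phosphatase to eIF2 alpha, had the lowest MRL of the list, 1.73 ± 0.11 (adjusted p = 0.000431), and the related PPP1R15A had 2.63 ± 0.86 (adjusted p = 0.127).

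For heavy over monosome the cycle list had 6 genes higher and 2 lower, with a median of 1.00. The regulator list had 6 higher and 1 lower, with a median of 0.69. Of all genes, 24.7% were higher and 24.4% lower. Against light polysomes, heavy polysomes called 2 genes of the cycle list higher and 1 lower, and 1 regulator in each direction. Of all genes, 14.7% were higher and 17.5% lower.

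The gene with the most similar profile to each member was found by Euclidean distance over the 9 percentages, among 10225 other genes with a mean of at least 100 reads. SGPP1 was nearest to EIF2S1 (3.18 percentage points), MPP7 to EIF2S2 (5.74) and CLN3 to EIF2S3 (6.82). NECTIN3 was nearest to EIF2B1 (6.53), CLU to EIF2B2 (5.58), ANKRD46 to EIF2B3 (5.08), FOXJ2 to EIF2B4 (5.99) and DAGLB to EIF2B5 (5.80). No member was the nearest gene of another. The closest link among them was between EIF2B3 and EIF2S1 (13.6 points), where EIF2S1 was the gene ranked 126 from EIF2B3 and EIF2B3 the gene ranked 178 from EIF2S1. EIF2S3 and EIF2B5 were each other's nearest member, at 33.9 points and ranks 1130 and 1196.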

How the data were processed

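Per the submitters' processing notes, featureCounts and GRCh38 were used; aligner, counting options and strand use: not given in the sources used here. What the authors deposited is a normalized signal per library, which holds whole reads over 1 factor for each library, since 100% of values came out whole within 0.01 reads. The deposited percent values were recomputed to within 5.5e-08. The authors' score (MRL) was matched to within 2.17e-09 by weights of 1, 2.5 and 6 solved from the values. The authors' log2 polysome enrichment is used by rank. Monosome columns carry another letter than the library names and were identified by the deposited heavy over monosome ratio.

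A filter of 10 recovered reads on average, with reads in each gradient, was applied. Since values were normalized, not raw counts, limma 3.58.1 (trend, R 4.3.3) was fitted on log2(value + 1) with fraction as the only term. For MRL, log2 MRL minus the median gene of its gradient was tested against 0. Tests are two-sided, adjusted by Benjamini-Hochberg over 12720 genes at 0.05, and were tested on simulated data in which no library stood apart. Alternatives were pseudocounts 0.5 and 5, no filter or 50 reads, edgeR 4.0.16 and DESeq2 1.42.0 on recovered reads, a replicate block, other centres, weights or measures, and leaving out gradients or libraries. The labels make each replicate number a batch, and the deposited percentages are taken within replicate numbers, so libraries were paired by number. Deviations of same-numbered libraries correlated at -0.54 to 0.39. All 8 members are named, with the 2 highest and 2 lowest genes by MRL of each pathway list and the nearest gene of each member. Members and lists were chosen with earlier results of these data known. Gene models came from GENCODE 29, start sites from RefSeq.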

Additional observations from a re-analysis of the deposited data

How the results depend on the processing

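In the contrasts between fractions, pseudocount, filter, edgeR and the replicate block left each count of called members within 1.5 times its value, as did filter, centre, weights and measure for MRL; DESeq2 called 2 members for light polysome over monosome in place of 0, and EIF2S3 lower for heavy polysome over monosome (adjusted p = 0.0127). The replicate block gave 6, 0 and 5 calls for heavy over monosome, light over monosome and heavy over light polysome, in place of 5, 0 and 5. Its one changed call was EIF2B4; MRL is taken within gradients and had no such fit. Leaving out gradients or libraries gave 3 to 8 calls for heavy polysome over monosome and 0 to 4 for light polysome over monosome. It gave 0 to 5 for heavy over light polysome and 4 to 7 for MRL. In the same order, the calls over all 12720 genes ran from 3137 to 7814, 562 to 4507, 0 to 7651 and 3422 to 7264. The main fits called 6246, 2380, 4097 and 5937. Over all genes, heavy over light polysome gave 0 calls without replicate 1, 7651 without replicate 2 and 1 without replicate 3, in place of 4097. Signs turned for some values, none of them called in the main fit. The largest main values among them were 0.349 (EIF2S1, light over monosome) and 0.31 (EIF2B5, heavy over light). For light over monosome, EIF2B2 had 0.097 by edgeR and 0.033 by DESeq2, and -0.426 to 0.297 with data left out; EIF2S1 had -0.221 to 0.665. For heavy over light, edgeR gave -0.007 for EIF2S2 and -0.006 for EIF2S3; with data left out EIF2S2 had -0.168 to 0.483, EIF2S3 -0.23 to 0.234 and EIF2B5 -0.081 to 0.548. The MRL deviation of EIF2B5 ran from -0.262 to 0.001. Weights of 1, 2 and 3 called EIF2S2 higher (adjusted p = 0.0309 by limma) and EIF2S3 lower (0.0453). The log2 ratio of light plus heavy to monosome counts, in place of MRL, called both as well (0.0289 and 0.047). That ratio ended the call of EIF2B4 (0.739) and called 3637 of all genes in place of 5937. The mean gene as centre called EIF2S2 (0.0216), and a minimum of 50 reads called EIF2S3 (0.0326). The cause of these changes was not tested. Read depth differs widely among the members: the lowest count in a library was 109 reads for EIF2B2 and 5518 for EIF2S3.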

Other observations

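Values by length of the pyrimidine run at the start were taken after the EIF2S3 sequence had been seen, and they carry no test. The run length counts bases before and after the start. Of the 12720 genes kept, 10366 matched a RefSeq start by symbol. The 112 genes with a run of 15 or more over the start had a median MRL of 2.74, and 44.6% of them were called lower in heavy polysomes than in monosomes by limma. The 9059 genes whose first base is not a pyrimidine had a median of 3.24, with 23.3% called lower. Ribosomal protein genes were then left out by the start of their symbols, which can also take out other genes named alike. After that, 102 genes with the long run remained, with a median of 2.83 and 39.2% called lower. In that set, runs of 10 to 14 bases had a median of 3.11 with 26.1% lower. Runs of 5 to 9 had 3.01 with 32%, and runs of 1 to 4 had 3.20 with 23.7%. Genes whose first base is not a pyrimidine had 3.24 with 23.1%. EIF2S3, at 2.64, lay below these medians.

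In the authors' deposited table, polysome enrichment placed EIF2B3 at rank 202 of 13661 genes, EIF2S1 at 767, EIF2B2 at 834 and EIF2B1 at 1411, followed by EIF2S2 at 2354, EIF2B4 at 3407, EIF2B5 at 8591 and EIF2S3 at 9842. The copy gene EIF2S3B had an MRL of 2.61 ± 0.90 (SD, n = 3) on its few reads. Its monosome share was 51.1%, 78.4% and 27.8% in gradients 1, 2 and 3.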
